A study of Mus musculus with 58 samples.

Results

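The peaks described here are the BMAL1 binding sites that were listed for NIH3T3 cells and had no entry with the same chromosome, start and end in the BMAL1 list of mouse liver. They number 200 of the 463 peaks in the NIH3T3 BMAL1 list and are called NIH3T3-alone peaks. The other 263 NIH3T3 peaks had an identical entry in the liver list and are called identical peaks, and the 991 of 1254 liver entries without an NIH3T3 counterpart are called liver-alone peaks. NIH3T3 is an immortalised mouse embryonic fibroblast line. Its cultures were synchronised with 100 nM dexamethasone, a glucocorticoid, for 30 min, and chromatin immunoprecipitation with sequencing was then done at fixed times. Per the labels, 7 libraries covered BMAL1 between 12 and 38 h after dexamethasone and 6 covered CLOCK between 18 and 38 h. Only 20 h appears in the name of the BMAL1 peak list, and whether all 7 libraries entered it is unknown. All NIH3T3 cultures received dexamethasone, so no unsynchronised cells are compared. The liver CLOCK list came from 1 sample of C57/BL6 mice aged 12 to 14 weeks, labelled as pooled. The liver BMAL1 list carried zeitgeber time 6 h in its name, and the age of those mice is unknown here.

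BMAL1 and CLOCK are basic helix-loop-helix proteins that pair and bind E-boxes, short palindromic DNA motifs, in the positive limb of the circadian clock. Their targets include Per, Cry and Nr1d genes, whose products repress the clock in turn, and output regulators such as Dbp. In synchronised fibroblasts the loop keeps cycling in culture, and in liver the same pair also acts at many metabolic genes.

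The list gave each peak's position, a gene and a signed distance from the gene's start site, and no height, score or value per library. Strength of binding and depth were therefore unknown, and the counts below are counts of peaks. Coordinates of peaks are those of mm9, the only build named in the submitters' processing notes. Exon and intron positions were not assigned. The NIH3T3-alone peaks formed the last 200 entries of the list, after the 263 identical ones.

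The E-box of canonical form, CACGTG, was frequent in the promoters of genes with an NIH3T3-alone peak at the start site, and 11 promoters are shown to let a reader see it in place. The first 8 are those nearest to a peak by the rule for named genes, led by the 2 that also had a CLOCK peak. Bax, Fkbp5 and Gadd45g were added after their values were seen, because they are a cell death gene, a glucocorticoid-induced gene and a stress gene. Each stretch is copied from RefSeq promoters of assembly GRCm38.p6 and runs 5′ to 3′ on the strand of the gene. It begins 30 bases before the first E-box and ends at most 30 bases after the last one shown or after the start site. Capitals mark CACGTG. These letters belong to the promoter and not to the peak itself, because the build of the peaks differs.
D2Wsu81e: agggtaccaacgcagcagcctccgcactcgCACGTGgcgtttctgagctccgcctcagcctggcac
Top1: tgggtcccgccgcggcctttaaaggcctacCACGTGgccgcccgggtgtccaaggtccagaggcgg
Glb1: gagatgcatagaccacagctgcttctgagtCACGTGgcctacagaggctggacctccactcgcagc
Snx8: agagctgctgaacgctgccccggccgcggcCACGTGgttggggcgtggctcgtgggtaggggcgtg
Ilvbl: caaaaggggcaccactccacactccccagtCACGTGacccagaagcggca
Rmnd1: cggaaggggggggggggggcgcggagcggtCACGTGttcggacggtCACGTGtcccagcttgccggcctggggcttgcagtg
Clcn7: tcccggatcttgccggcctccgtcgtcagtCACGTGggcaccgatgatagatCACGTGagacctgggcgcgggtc
Rbm19: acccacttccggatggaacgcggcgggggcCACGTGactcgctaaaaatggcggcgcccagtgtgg
Bax: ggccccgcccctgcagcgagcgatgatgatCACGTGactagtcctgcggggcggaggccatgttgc
Fkbp5: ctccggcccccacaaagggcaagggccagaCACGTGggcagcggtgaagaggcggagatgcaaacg
Gadd45g: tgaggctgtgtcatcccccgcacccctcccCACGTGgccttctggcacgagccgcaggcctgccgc

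In GRCm38.p6 the stretches on the plus strand are Top1 at chr2:160645662-160645727, Glb1 at chr9:114401000-114401065, Ilvbl at chr10:78574480-78574529, Clcn7 at chr17:25133346-25133420, Rbm19 at chr5:120116477-120116542 and Gadd45g at chr13:51846503-51846568. Those on the minus strand are D2Wsu81e at chr2:30178531-30178596, Snx8 at chr5:140389373-140389438, Rmnd1 at chr10:4432365-4432446, Bax at chr7:45466872-45466937 and Fkbp5 at chr17:28486283-28486348. RefSeq lists D2Wsu81e as Spout1. Rmnd1 and Clcn7 each held 2 E-boxes, with 10 and 16 bases between them. Bax held another one, 38 bases after the one shown.

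The NIH3T3-alone peaks lay at start sites less often than the identical peaks and more often than the liver-alone peaks. Of the 200 peaks, 112 lay within 1 kb of the start site, a share of 56.0% (95% exact Clopper-Pearson interval 48.8 to 63.0). Over all 463 NIH3T3 peaks the share was 71.7%. Among the identical peaks it was 83.7% (220 of 263, interval 78.6 to 87.9), and among the liver-alone peaks 34.3% (340 of 991, interval 31.4 to 37.4). A two-sided Fisher exact test against the identical peaks gave an odds ratio of 0.250 (95% interval 0.158 to 0.390) and a Benjamini-Hochberg adjusted p = 3.31e-10 over 9 tests. Against the liver-alone peaks it was 2.43 (interval 1.77 to 3.36, Fisher exact test, adjusted p = 3.71e-08). These intervals and tests cover counting over peaks only, since peaks of 1 list are not replicates of a cell type.

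**Figure D1:**
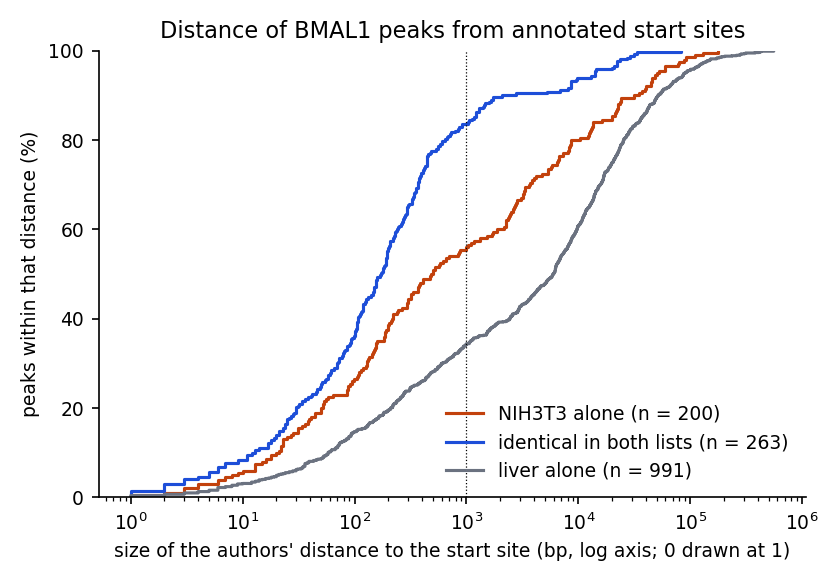
Share of BMAL1 peaks (%) at or below each distance from the start site (bp, log axis), drawn for the NIH3T3-alone, identical and liver-alone peaks. The curve of the 200 NIH3T3-alone peaks runs between the others, with a median of 492 bp against 171 bp for the identical and 6004 bp for the liver-alone peaks.

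Distances of the NIH3T3-alone peaks ran from 1 to 178218 bp. Within 50 bp of the start site there were 40 peaks, 37 lay at 51 to 200 bp and 35 at 201 to 1000 bp. Farther out, 33 lay at 1001 to 5000 bp, 26 at 5001 to 20000 bp and 29 beyond 20000 bp. The peaks thus fell into a promoter portion and a long distal tail that was fuller than that of the identical peaks, of which 11 lay beyond 20000 bp. Just inside the 1 kb limit were peaks at 5031425E22Rik (861 bp), Gm13834 (-873 bp) and Npm1 (985 bp). Just outside it were peaks at Atp2b1 (-1041 bp), Mbnl1 (-1096 bp) and Itgb7 (1174 bp).

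The 10 peaks nearest to a start site belonged to Glb1, Snx8, Bop1, Ilvbl, Nat10, Osbpl1a, Hnrnpk, Clcn7 and Rmnd1, the last with a pair of peaks. The peak of Glb1, the lysosomal beta-galactosidase, lay 1 bp upstream of the start at chr9:114310169-114310218 in mm9. That of Snx8, a sorting nexin of endosomes, lay 2 bp downstream of it. The peak of Hnrnpk, an RNA-binding protein, lay at -6 bp. The farthest peaks were given to Tcf7l2 (131057 bp), Inpp4b (109854 bp), Mir148a (91269 bp), Gm11449 (-87505 bp), Trib1 (79831 bp), F13a1 (59258 bp), Gm16960 (-58906 bp) and Slc44a3 (-52491 bp). The other 2 of the 10 farthest peaks, on chromosomes 17 and 15, had no gene and lay at -78324 and -178218 bp. Beyond 100 kb lay 3 of the 200 peaks. The gene given to a distal peak is the authors' assignment, and no value here ties the peak to that gene.

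Within 1 kb, the NIH3T3-alone peaks lay mostly upstream of the start. A negative distance was read as upstream, after a check on 243 pairs of neighbouring peaks of 1 gene in both BMAL1 lists. The order of the distances followed the RefSeq strand in 211 of them. It did so in each of the 168 pairs whose distances differed by the gap between centres within 1 bp, that is, which were measured from the same start. Of the 112 promoter peaks, 79 were upstream, or 70.5% (interval 61.2 to 78.8), and their median signed distance was -54 bp. Among the identical peaks 161 of 220 (73.2%) were upstream, with a median of -83.5 bp. The shares were not told apart, with an odds ratio of 0.878 (interval 0.516 to 1.51, Fisher exact test, adjusted p = 0.607). Among the 88 peaks beyond 1 kb, 37 (42.0%, interval 31.6 to 53.1) were upstream.

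**Figure D2:**
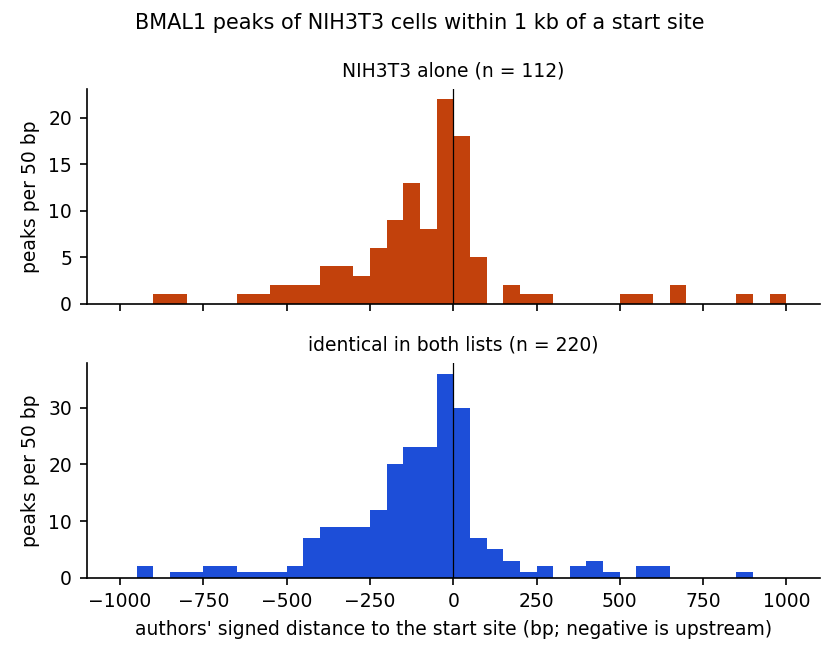
Number of BMAL1 peaks against the authors' signed distance to the start site (bp, negative upstream) for NIH3T3-alone and identical peaks within 1 kb. Both sets pile up just upstream of the start, with medians of -54 and -83.5 bp.

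The 2 kinds of NIH3T3 peak also differed in how they clustered. Another entry of the NIH3T3 list lay within 1 kb of 43 NIH3T3-alone peaks (21.5%) and of 136 identical peaks (51.7%). The odds ratio was 0.257 (interval 0.165 to 0.394, Fisher exact test, adjusted p = 9.87e-11), a comparison chosen after the data were seen. Every entry of a close group was counted, so the entries were not independent. The interval is therefore too narrow and the p-value too small. Joined at 1 kb, the NIH3T3-alone peaks made 183 sites. Most of them, 171 of 200 (85.5%), were exactly 50 bp wide, against 122 of 263 (46.4%) identical and 928 of 991 (93.6%) liver-alone peaks.

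None of the 200 peaks overlapped a liver BMAL1 peak by even 1 bp. Wherever entries of both lists overlapped they were identical, so overlap and identity gave the same 200 peaks. How the lists were assembled is unknown, and its part in the absence of partial overlaps was not tested. The median distance to the nearest liver peak centre was 256220 bp. A liver centre lay within 500 bp of 11 peaks, within 1 kb of 17, within 50 kb of 39 and within 100 kb of 62, while 47 peaks had none within 1 Mb. All 11 closest neighbours in liver were identical entries, so these NIH3T3-alone peaks were further entries beside a site listed in both contexts. They belonged to Nr1d1 (288 and 302 bp from the liver centre), Dbp (146.5 and 91.5 bp), Slc20a1 (77 bp), Wee1 (376 bp), Brd2 (294.5 bp), Mepce (293 bp), Stt3b (60 bp), Pigw (54 bp) and 2410080I02Rik (453 bp).

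CLOCK binding in the same cells was read from the NIH3T3 CLOCK list, which had no part in choosing the peaks. A CLOCK peak centre lay within 500 bp of 29 of the 200 NIH3T3-alone peaks, or 14.5% (interval 9.93 to 20.2), and over all 463 NIH3T3 peaks the share was 22.0%. Among the identical peaks it was 27.8% (73 of 263, interval 22.4 to 33.6). The odds ratio was 0.442 (interval 0.264 to 0.726, Fisher exact test, adjusted p = 0.00119). Among the liver-alone peaks 9 of 991 (0.908%, interval 0.416 to 1.72) had an NIH3T3 CLOCK peak. This gave an odds ratio of 18.4 for the NIH3T3-alone peaks (interval 8.31 to 45.1, Fisher exact test, adjusted p = 2.07e-15, chosen after the data were seen). The liver-alone peaks were chosen for lacking an NIH3T3 BMAL1 entry, so this contrast is not independent of the choice of sets. Without the peaks of clock genes and clock output genes the counts were 24 of 192 NIH3T3-alone, 46 of 228 identical and 9 of 984 liver-alone peaks. The difference from the identical peaks then no longer passed the adjusted threshold of 0.05 (odds ratio 0.566, Fisher exact test, adjusted p = 0.0547), and the odds ratio against the liver-alone peaks was 15.4.

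The difference from the identical peaks was also seen within promoters, where 12 of 112 NIH3T3-alone peaks (10.7%) and 58 of 220 identical peaks (26.4%) had a CLOCK peak. There the odds ratio was 0.336 (interval 0.156 to 0.672, Fisher exact test, adjusted p = 0.00144). The 12 peaks came from 9 genes and the 58 from 34, and close entries can share a CLOCK peak. The entries were thus not independent, so the interval is too narrow and the p-value too small. Joined sites were not tried within promoters. Beyond 1 kb the counts were 17 of 88 (19.3%) and 15 of 43 (34.9%), with an odds ratio of 0.450 (interval 0.182 to 1.11, Fisher exact test, adjusted p = 0.105). The odds ratios of promoter and distal peaks were not told apart (Zelen exact test, p = 0.789). By distance, the share of NIH3T3-alone peaks with CLOCK was 15.0% within 50 bp of the start (6 of 40), 8.11% at 51 to 200 bp (3 of 37) and 8.57% at 201 to 1000 bp (3 of 35). It was 12.1% at 1001 to 5000 bp (4 of 33), 15.4% at 5001 to 20000 bp (4 of 26) and 31.0% beyond 20000 bp (9 of 29, interval 15.3 to 50.8). The identical peaks also had their highest share beyond 20000 bp, at 54.5% (6 of 11). Their lowest was within 50 bp, at 13.4% (9 of 67), and in every other range they stood above the NIH3T3-alone peaks. A difference between the distal and promoter shares of the NIH3T3-alone peaks did not pass the test (odds ratio 1.99, interval 0.836 to 4.87, Fisher exact test, adjusted p = 0.120).

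**Figure D3:**
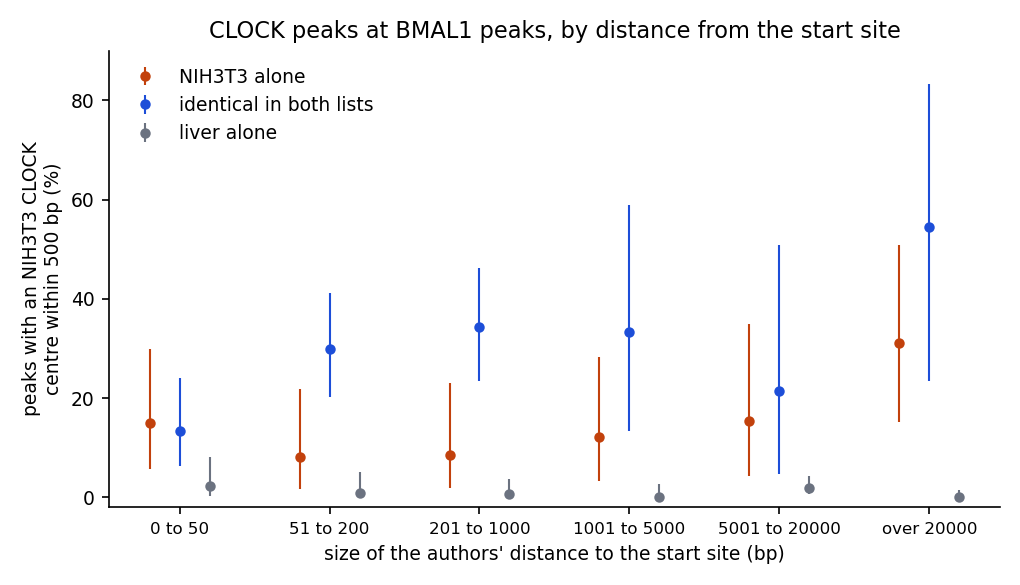
Share of BMAL1 peaks (%) with an NIH3T3 CLOCK centre within 500 bp in 6 ranges of distance from the start site (bp), with exact 95% Clopper-Pearson intervals as bars. The NIH3T3-alone points lie at 15.0% at the start site, lowest at 8.11% in the next range and highest at 31.0% beyond 20000 bp, with wide intervals. The identical points are also highest beyond 20000 bp, at 54.5%, and lie above the NIH3T3-alone points in all ranges but the first. The liver-alone points stay near 0.

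Where CLOCK was present it sat close to BMAL1. The 29 offsets between centres ran from 2 to 479 bp with a median of 39 bp, and 18 were within 50 bp. For the 73 identical peaks with CLOCK the median was alike, at 42.5 bp. Their offsets reached 325 bp within 1 kb of the start and 54.5 bp beyond it. The 12 NIH3T3-alone promoter peaks with CLOCK belonged to 9 genes. At Top1, the DNA topoisomerase that relaxes supercoils, the BMAL1 peak at -188 bp (chr2:160471412-160471461 in mm9) lay 2 bp from a CLOCK centre. At Dbp, a clock-controlled bZIP activator, the peaks at -27 and -265 bp lay 5 and 15 bp from CLOCK centres. At Pik3ip1, a membrane inhibitor of phosphoinositide 3-kinase, the offset was 19 bp, and the peak lay at -38 bp. At D2Wsu81e the peaks at -104 and -50 bp had offsets of 20 and 34 bp. At Nat10, an RNA acetyltransferase of the nucleolus, the offset was 78 bp. At Litaf, a protein of late endosomes and lysosomes, it was 122 bp. At Nr1d1 the peaks at -297 and 199 bp had offsets of 57 and 253 bp. The largest promoter offsets were 418.5 bp at Wee1 and 479 bp at Nr1d2, which lie near the 500 bp limit. A BMAL1 entry listed in both contexts lay 376 bp from the Wee1 peak and 545 bp from the Nr1d2 peak. Another lay 288 bp from the Nr1d1 peak at 199 bp. At these 3 peaks the CLOCK centre may thus sit at the shared entry, which was not tested.

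The 17 distal peaks with CLOCK sat within 92 bp of it, with a median offset of 39 bp. Of all 200 NIH3T3-alone peaks, promoter peaks included, only 22 had a liver BMAL1 centre within 5 kb. None of these 17 did, and the liver centre nearest to any of them lay 8202.5 bp away, at Atf6b. The share among all distal peaks was not counted, so this is not read as a trait of distal peaks with CLOCK. The 17 included a peak 8643 bp downstream of the start of Atf6b, with an offset of 13 bp. Atf6b encodes a membrane-bound transcription factor of the unfolded protein response. The peak at Ccl1, a chemokine, lay 8018 bp downstream with an offset of 22 bp. A pair at Ppl, the gene of the cytoskeletal linker periplakin, lay 2338 and 2390 bp upstream with offsets of 24 and 28 bp. The peak in the direction of transcription from Tcf7l2, a transcription factor of Wnt signalling, lay 131057 bp from the start with an offset of 48 bp. At Cubn, which encodes the receptor cubilin, the peak lay at 44767 bp with an offset of 39 bp. H2afy2, a macroH2A histone gene, had its peak at 23818 bp with an offset of 50 bp. Ppp2r2a, a regulatory subunit of protein phosphatase 2A, had its peak at -48201 bp with an offset of 92 bp. The remaining ones were given to 2310035K24Rik, A330017A19Rik, A630055G03Rik, Arl4d, C530028O21Rik, Fam25c, Btbd16, 1700011F14Rik and to no gene, with offsets from 6 to 76 bp.

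**Figure D4:**
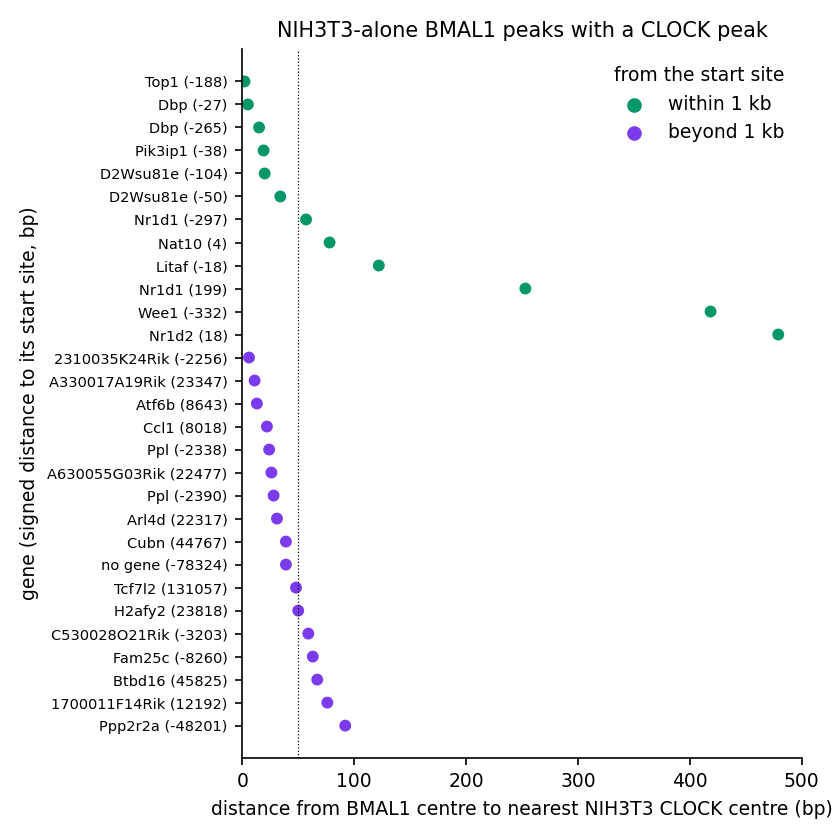
Offset between BMAL1 and nearest NIH3T3 CLOCK centre (bp) for each of the 29 NIH3T3-alone peaks with CLOCK within 500 bp, split into peaks within and beyond 1 kb of the start site. All 17 distal points lie at 92 bp or less, and the promoter points reach 479 bp.

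CLOCK in liver lay within 500 bp of 8 NIH3T3-alone peaks (4.0%, interval 1.74 to 7.73). Over all 463 NIH3T3 peaks the share was 10.2%. Among the identical peaks it was 14.8% (39 of 263) and among the liver-alone peaks 1.51% (15 of 991), and these shares were not tested against each other. The 8 peaks belonged to Nr1d1, Nr1d2, Dbp, Slc20a1 and 2410080I02Rik, and 5 of them also had NIH3T3 CLOCK.

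Of the clock genes, Nr1d1 had 3 NIH3T3-alone peaks and was the gene with most of them. Nr1d1 encodes REV-ERB alpha, a nuclear receptor that represses Bmal1. Its NIH3T3-alone peaks lay at -297, 199 and 2253 bp, among identical peaks at -8107, 27, 1025 and 1392 bp. Nr1d2, the gene of the related receptor REV-ERB beta, had an NIH3T3-alone peak at 18 bp and an identical one at 474 bp. Bhlhe40, a basic helix-loop-helix repressor of the clock also called DEC1, had an NIH3T3-alone peak at -242 bp beside an identical one at -1129 bp. At Dbp the identical peaks lay at -187, -119, -113 and 447 bp, between and after the NIH3T3-alone ones. Hlf, a bZIP factor of the same family as Dbp, had an NIH3T3-alone peak at -31 bp, an identical one at -27255 bp and liver-alone peaks at -598, 9142 and 12075 bp. All 5 of these genes had an identical peak as well, and no Per or Cry gene was among those of the NIH3T3-alone peaks. Of 10 core clock genes in the whole NIH3T3 list, 3 had an NIH3T3-alone peak and 10 an identical one. 2310044G17Rik, which RefSeq calls Cipc and which encodes an inhibitor of CLOCK, had a peak at -94 bp and was named after its value was seen.

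The 195 peaks with a gene named 175 genes, of which 152 had no liver BMAL1 entry, 13 had an identical peak too and 10 had a liver-alone peak only. Over all genes of the NIH3T3 list, 44.1% (152 of 345) had no liver entry, and the choice of peaks without a liver entry fixes much of this count. RefSeq held 169 of them, 158 as protein coding. One NIH3T3-alone peak was listed for 156 genes, a pair for 18 and 3 peaks for Nr1d1.

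Genes of the list of cell cycle and growth arrest genes numbered 4 among the 175 genes (2.29%) and 4 among the 183 genes of identical peaks (2.19%). Over all 345 genes of the NIH3T3 list they numbered 7 (2.03%). Bax, a pore-forming promoter of apoptosis, had a peak at 53 bp, and Bcl2l1, which encodes its antagonist Bcl-xL, had one at 23997 bp. Gadd45g, a growth arrest gene, had a peak at -88 bp. Wee1, the kinase that holds back entry to mitosis, had an NIH3T3-alone peak at -332 bp beside identical peaks at -905 and -708 bp. Wee1 also had a liver-alone peak at -983 bp.

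Stress and chaperone genes numbered 3 among the 175 genes of NIH3T3-alone peaks (1.71%) and 0 among those of identical peaks. Over all 345 genes of the NIH3T3 list the share was 0.870%, and the difference was not tested. Hspe1, the mitochondrial co-chaperonin, had its peak at 52 bp. Cirbp, a cold-inducible RNA-binding protein, had it at -5836 bp, and Trib1, a pseudokinase, at 79831 bp. Of the glucocorticoid-induced genes only Fkbp5, a co-chaperone of the glucocorticoid receptor, had an NIH3T3-alone peak, at -160 bp (chr17:28623230-28623279 in mm9). Of these genes 4 had an identical peak, and the whole NIH3T3 list held 5 among its 345 genes (1.45%). No culture without dexamethasone was compared, so the part of the hormone pulse in any of these peaks cannot be told apart from the cell type.

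Ribosome biogenesis genes numbered 4 of 175 (2.29%) against 2 of 183 for identical peaks (1.09%). Over the whole NIH3T3 list they numbered 6 of 345 (1.74%). Bop1, a factor of the large ribosomal subunit, had a peak at -3 bp, Nat10 one at 4 bp and Utp3, a protein of the small subunit processome, one at 99 bp. Npm1, which encodes the nucleolar chaperone nucleophosmin, had peaks at 696 and 985 bp. Of RNA processing genes 5 had an NIH3T3-alone peak (2.86% of the genes) and 2 an identical one, against 7 of 345 (2.03%) in the whole list. Among the 5 were Ddx39 at -87 bp, Hnrnpk at -6 bp and Rbm15b at -221 bp. Eif4a1, the helicase of translation initiation, had a peak at -183 bp.

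Of the transcription factors and signalling regulators 4 had an NIH3T3-alone peak (2.29% of the genes) and 6 an identical one. The whole NIH3T3 list held 10 among 345 genes (2.90%). Hes1, a repressor that Notch signalling induces, had peaks at -44 and 34 bp and a liver-alone peak at -18659 bp. Nr6a1, an orphan nuclear receptor, had its peak at -478 bp, Rarg, a retinoic acid receptor, at 4041 bp, and Tcf7l2 at 131057 bp. The zinc finger list gave 5 genes (2.86%), against 7 of 345 (2.03%) in the whole list. The first in alphabetical order were Zbtb7b at 21 bp, Zc3hav1l at 12368 bp and Zcchc2 at 3333 bp.

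The lipid and glucose lists gave 1 gene each. Lpin2, a phosphatidate phosphatase, had a peak at -40305 bp, and Irs2, an adaptor of the insulin receptor, had one at -506 bp. Identical peaks gave 3 lipid and 2 glucose genes, and the whole NIH3T3 list of 345 genes held 4 and 3. Of the fibroblast genes Tgfb2, a growth factor, had a peak at 6446 bp, and of the hepatocyte genes Krt8, a keratin of epithelia, had one at 19893 bp. No fibroblast or hepatocyte gene had an identical peak, so the whole list of 345 genes held 1 of each kind. Membrane transport genes numbered 7 (4.0%) against 5 (2.73%), and 11 of 345 (3.19%) in the whole list. The first in alphabetical order were Atp2b1 at -1041 bp, Slc20a1 at -13 bp and Slc25a13 at -128 bp. Slc20a1, a phosphate transporter, also had identical peaks at -443, -293 and -90 bp. None of these counts was tested, and the lists are small. NIH3T3-alone peaks were also listed, of vesicle genes, for Snx8 and Tbc1d15, of chromatin genes for Brd2, and of small RNA genes for Mir148a.

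Several genes carried a pair of NIH3T3-alone peaks about 1 peak width apart. The centres lay 52 bp apart at Ppl, 54 bp at D2Wsu81e and at BC031781, 55 bp at Zfp36l2, 56 bp at Rmnd1 and 65 bp at Clcn7. At Fkbp11 they lay 74 bp apart, at Hes1 78 bp, at E530001K10Rik 89 bp and at Ypel5 91 bp. Pairs farther apart were found at Ilvbl (234 bp), Dbp (238 bp) and 2410080I02Rik (406 bp). The remaining genes with a pair were Npm1, Mtdh, Trim56, Itgb7 and 5031425E22Rik. At Clcn7 and Rmnd1 the listed distances differed by only 9 and 2 bp, and 2 of the Nr1d1 peaks, 590 bp apart, by 496 bp, so the authors measured these from more than 1 start of the gene. Joining such entries at 1 kb gave the 183 sites counted above.

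The sequence of the promoters was compared with that of all genes, since the rule made no use of it. RefSeq promoters, from 250 bases before to 50 bases after the start, were held for 79 of the 98 genes with an NIH3T3-alone peak within 1 kb. Of those 79 genes, 47 (59.5%, interval 47.8 to 70.4) held CACGTG, which reads the same on both strands. The share over all 17492 protein-coding genes was 8.91%. It was 56.8% (71 of 125, interval 47.6 to 65.6) for genes of identical peaks and 34.5% (86 of 249, interval 28.7 to 40.8) for genes of liver-alone peaks. Of the 56 genes with a RefSeq promoter whose NIH3T3-alone peaks all lay beyond 1 kb, 10 held it (17.9%, interval 8.91 to 30.4). The promoters were rich in G and C, with a median of 64% against 56.3% for protein-coding genes. Among protein-coding genes at or above 64% the share with CACGTG was 12.6%, and among the NIH3T3-alone genes at or above it 57.5% (23 of 40). A match is a description of the letters and not a site in use.

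Other motifs were searched on both strands in the same windows. CACGTT, an E-box variant of clock genes, was in 8.86% of the 79 promoters against 5.49% of protein-coding genes, and CATGTG in 15.2% against 13.2%. At any position in a promoter only 1 of these E-box forms can match. NAGGTCA, the core site of REV-ERB and ROR receptors, was in 19.0% against 16.7%, and TTATGNAA, the site of DBP and its relatives, in 2.53% against 3.66%. AGAACA, the core of the glucocorticoid receptor site, was in 10.1% against 18.5%. TGANTCA, the AP-1 site, was in 7.60% against 8.12%, and TGACGTCA, the site of CREB, in 5.06% against 2.54%. GGGCGG, the GC box, was in 77.2% against 49.2%, and in 79.2% of the promoters of identical peaks. CCGGAAG, an ETS site, was in 24.1% against 13.0%, and CCAAT in 49.4% against 42.3%. The YY1 motif was in 3.80% against 1.41% and the NRF1 motif in 13.9% against 9.61%. Of the motifs searched, CACGTG stood farthest above the share of all protein-coding genes, and CACGTT and CATGTG were near it.

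In promoters with an E-box, the one nearest to the peak often lay close to the reported position of the peak. Of 76 NIH3T3-alone peaks reported inside the promoter window, 61 had a gene in the table and 44 of these had an E-box there. The difference between the peak's distance and the centre of the nearest E-box had a median of 17.5 bp and ran from 0 to 237 bp, and 24 of the 44 (54.5%) were within 30 bp. For identical peaks the median was 21 bp (83 peaks) and for liver-alone peaks 31.5 bp (66 peaks). At D2Wsu81e the peak at -104 bp matched an E-box centre at -104 bp. At Eif4a1 the values were -183 and -186 bp, at Fkbp5 -160 and -166 bp, at Top1 -188 and -202 bp, and at Slc25a13 -128 and -122 bp. At Rmnd1 the peaks at 6 and 8 bp were nearest to a centre at -9 bp, and at Gadd45g the peak at -88 bp to one at -139 bp. The 3 differences above 100 bp were at Ilvbl (237 bp), Ctsl (126 bp) and Pigw (101 bp). The correlation of both positions over the 44 peaks was 0.741, given as a description. Only peaks inside the window were used and the nearest E-box of any promoter of the gene was taken. Small differences and a positive correlation are thus partly built in, and no background level was computed. The start used by the authors may also differ from that of RefSeq, and some genes share a promoter.

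E-boxes were not confined to the promoters where CLOCK was listed. Of the 8 genes with CLOCK at an NIH3T3-alone promoter peak and a promoter in the table, 2 held CACGTG (D2Wsu81e and Top1), or 25% (interval 3.19 to 65.1). Of the 71 without CLOCK, 45 did, or 63.4% (interval 51.1 to 74.5). For genes of identical peaks the shares were 60.7% (17 of 28) with CLOCK and 55.7% (54 of 97) without. The 6 with CLOCK but no CACGTG in the window were Dbp, Litaf, Nat10, Nr1d1, Nr1d2 and Pik3ip1. The Nr1d1 promoter held CACGTT and CATGTG. In 9 genes the promoters held at least 2 E-boxes. Among them, Ptprs, a receptor tyrosine phosphatase, had 10 and 29 bases between neighbours, and Rrn3, an initiation factor of RNA polymerase I, had 161.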

How the data were processed

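The deposited peak lists of the authors gave chromosome, start and end, and, for BMAL1, a gene and a signed distance in bp; these positions and names are the only values used. Per the submitters' processing notes, Bowtie, SAMtools and bedtools were used with mm9, with no role stated. Peak caller, thresholds, depth and how the lists were assembled: not given in the sources used here. Starts are printed counting from 1. Members were the NIH3T3 BMAL1 entries whose first 3 columns matched no liver entry.

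CLOCK was called present where a CLOCK centre lay within 500 bp, and promoters were peaks within 1 kb of the start site. Shares carry 95% exact Clopper-Pearson intervals. Sets were compared by two-sided Fisher exact tests with conditional odds ratios, adjusted by Benjamini-Hochberg over 9 tests, with a threshold of 0.05. The test was tried on data with known answers. The sets share 1 list each, and replicate spread could not be estimated from lists without values per library. Genes were matched by symbol or synonym to RefSeq GRCm38.p6, used for names, strand and promoters.

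Named genes were all those of the clock, output, cell cycle, stress, glucocorticoid, transcription factor, lipid, glucose, fibroblast, hepatocyte and ribosome biogenesis lists, those with at least 2 peaks or with CLOCK, the 10 nearest and 10 farthest peaks, and up to 3 examples of other lists. The members and lists were chosen with earlier results of these data known. Alternatives were other windows, other definitions of a liver match, joined sites, and leaving out clock genes. RNA, RNA polymerase II and input libraries were not analysed here. Computations ran in SciPy 1.17.1, pandas 2.3.3 and NumPy 2.4.6 under Python 3.11.15, with plots from matplotlib 3.10.9.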

Additional observations from a re-analysis of the deposited data

How the results depend on the processing

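Of 27 alternatives, each adjusted over the 9 tests with the others as reported, 26 kept the direction and the side of the threshold, the count within 1.5 times, or the E-box share within its interval. The exception was the CLOCK share against identical peaks without clock genes, with an odds ratio of 0.566 (Fisher exact test, adjusted p = 0.0547, unadjusted p = 0.0365). Some of the 26 could hardly differ from the main result. The overlap definition gave the same peaks, and the CLOCK limit of 1 kb gave the same counts within promoters. For the E-box share, genes with a peak within 200 bp were part of those with a peak within 1 kb. The number of NIH3T3-alone peaks ran from 178 to 200 over the definitions of a liver match. The odds ratio for the promoter share ran from 0.211 to 0.495 against identical and from 2.26 to 2.89 against liver-alone peaks. That for the CLOCK share ran from 0.366 to 0.566 against identical peaks. Against liver-alone peaks it ran from 15.4 to 25.6, a contrast not independent of the choice of sets. Peak height, depth and the spread between libraries limit every comparison, because the lists do not give them. No paired analysis was possible because the peak lists hold no value per library, and the replicate numbers in the labels belong to RNA libraries not analysed here.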

Other observations

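Of a list of lysosome genes written after the member genes had been seen, 5 had an NIH3T3-alone peak. They were Glb1 (-1 bp), Hexa (10 bp), Clcn7 (-7 and -16 bp), Litaf (-18 bp) and Ctsl (-107 bp), which encode a galactosidase, a hexosaminidase subunit, a chloride transporter, a protein of late endosomes and lysosomes, and the protease cathepsin L. All 5 of these genes, 2.86% of 175, had their peaks within 1 kb. The Clcn7 distances are from different starts. The same list held 3 of 183 genes of identical peaks (1.64%, Atp6v0b, Mcoln1 and Tmem55b). It held 4 of 823 genes of liver-alone peaks (0.486%, Arsa, Atp6v1c1, Lamp1 and Tmem55b). The listed genes of both other sets also all had such a peak within 1 kb. No test was run, since the list was made from the members, which raises their share. The share over the whole NIH3T3 list was not counted, so no theme is read from these counts.

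Nuclear genes of mitochondrial proteins, also named after their values were seen, included Ears2, the mitochondrial glutamyl-tRNA synthetase, with a peak at 13 bp, C1qbp at 58 bp, Acaa2, a thiolase of fatty acid oxidation, at -127 bp, Bnip3, a mitophagy receptor, at -148 bp, and Brp44l, a subunit of the pyruvate carrier, at -375 bp. These genes were picked by hand and their share was not counted, so no theme is read from them. The lists of mitochondrial ribosome and respiratory chain genes held 0 genes of NIH3T3-alone peaks, and the respiratory chain list held 2 genes of identical peaks. Of all 345 genes of the NIH3T3 list, the mitochondrial ribosome list held 0 and the respiratory chain list 2.

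The NIH3T3-alone peaks were spread over 20 chromosomes. Chromosome 2 held 26 of them and 14 identical peaks, and chromosome 3 held 4 and 17.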
